A study of Mus musculus with 12 samples.

Results

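The series mapped GZF1, a DNA-binding protein with zinc fingers and a BTB domain, in mouse embryonic stem cells. Described here are 10 genes that write, copy, erase or protect DNA methylation: Dnmt1, Uhrf1, Dnmt3a, Dnmt3b, Dnmt3l, Tet1, Tet2, Zfp57, Trim28 and Setdb1. They were chosen by name, as 10 of 47,042 autosomal genes, with earlier results of these data known. Each was read as every 1 kb bin that overlaps its gene body in the mm10 build with 5 kb on each side, which gave 569 of 2,462,755 autosomal bins. Promoters of these genes carried modest signal, at most 2.41-fold over the local background in the anti-FLAG library of the Cas9 line and 5.08-fold in the anti-GZF1 library of the RGM line, and their share above 2-fold lay near that of other protein-coding promoters.

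Chromatin of formaldehyde-fixed cells had been cut with micrococcal nuclease and precipitated, and the recovered DNA sequenced. The 8 libraries used, of 12 that the series lists, come from 2 lines: Cas9-GFP ("Cas9") and RGM, labelled 129xCAST. Cells that overexpressed Gzf1-Flag were precipitated with anti-FLAG M2, from clone 35 in Cas9 and clone 56 in RGM. Endogenous GZF1 was precipitated with anti-GZF1 from wild-type Cas9, wild-type RGM, Gzf1 knockout Cas9 and control Cas9 cells. Wild-type Cas9 cells also gave an H3K27ac library, a histone acetylation found at active promoters and enhancers, and Cas9 chromatin gave the input. The promoter that drives Gzf1-Flag, the part of Gzf1 removed in the knockout, and how the control differs from the wild type are not stated in the labels used here. An anti-FLAG library from cells without the tag was not analysed here, so reads in the anti-FLAG libraries cannot be told apart from what the antibody recovers without its target. Each group is 1 library, so no test was run and no p-value is given. Intervals are 95% and cover counting error only, with reads treated as independent molecules, which they are not. Those of folds, and of ratios relative to the surrounding 1 Mb, take that background as fixed. None covers variation between libraries.

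The libraries held 10.1 M reads (input) to 94.2 M reads (control), or 3.93 to 35.8 reads per autosomal bin. The RGM wild-type library was shallow, with 8.61 reads per bin. Values are densities, the reads in a bin divided by the library's mean per autosomal bin, so 1 is the autosomal mean. Enrichment is the fold of a density over the median of the 10 bins on each side, called at 2-fold, and 79.5% of autosomal bins passed a filter on input density (0.25 to 3). Over the Gzf1 gene body the density was 0.688 in the knockout and 0.903 in the control, a ratio of 0.762 (0.658 to 0.881), beside 0.76 for the 1 Mb around it, so these reads do not check the deletion. At the promoters of 11 embryonic stem cell marker genes the median H3K27ac fold was 1.61, against 1.24 for 4 markers of fibroblast feeder cells, 1.02 for 6 markers of differentiated tissues and 1.70 for all protein-coding genes.

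In mammals DNMT1 copies methyl groups onto the new strand after replication, and UHRF1 brings it to hemimethylated DNA. DNMT3A and DNMT3B set new methylation, helped by DNMT3L, which has no catalytic activity of its own, and the TET enzymes oxidise 5-methylcytosine. At imprinted loci ZFP57 binds a methylated motif and brings TRIM28, a corepressor, which in turn brings SETDB1, a histone H3 lysine 9 methyltransferase. Mouse embryonic stem cells are known to express the de novo enzymes and Tet1 at high levels.

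The promoters of the members differed in their content of CG dinucleotides, as the sequences show. RefSeq promoters (250 bases before to 50 after an annotated start, build GRCm38.p6) matched all 10 genes, with 19 annotated starts in 18 bins. Printed here are 4 promoters with many CG dinucleotides and a high RGM anti-GZF1 value, followed by 2 with few and a lower value. They were picked on both, so they do not show a relation between CG content and signal. Capitals mark TGCCGC, the ZFP57 motif, and TGCGC, the opening letters of the site reported for human GZF1, each searched on both strands. No copy of one overlapped a copy of the other.
Dnmt1, chr9:20952574-20952873, minus strand: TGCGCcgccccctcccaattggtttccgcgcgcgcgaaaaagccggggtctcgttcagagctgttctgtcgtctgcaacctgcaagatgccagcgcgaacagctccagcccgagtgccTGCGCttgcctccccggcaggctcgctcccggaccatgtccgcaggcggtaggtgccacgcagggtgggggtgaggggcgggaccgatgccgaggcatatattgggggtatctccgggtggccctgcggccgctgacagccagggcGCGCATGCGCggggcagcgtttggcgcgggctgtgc
Dnmt3a, chr12:3806910-3807209, plus strand: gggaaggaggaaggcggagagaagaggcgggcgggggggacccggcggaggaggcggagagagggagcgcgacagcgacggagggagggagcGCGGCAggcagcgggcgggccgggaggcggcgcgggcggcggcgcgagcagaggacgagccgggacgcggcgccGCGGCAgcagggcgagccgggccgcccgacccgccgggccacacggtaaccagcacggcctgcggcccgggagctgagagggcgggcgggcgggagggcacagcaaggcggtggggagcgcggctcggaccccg
Tet2, chr3:133544341-133544640, minus strand: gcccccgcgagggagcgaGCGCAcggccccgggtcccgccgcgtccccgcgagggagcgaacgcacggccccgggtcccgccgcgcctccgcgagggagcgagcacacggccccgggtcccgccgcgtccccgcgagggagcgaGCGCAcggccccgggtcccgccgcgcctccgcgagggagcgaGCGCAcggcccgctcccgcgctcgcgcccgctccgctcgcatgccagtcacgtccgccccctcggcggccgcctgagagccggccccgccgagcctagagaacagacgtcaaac
Trim28, chr7:13023902-13024201, plus strand: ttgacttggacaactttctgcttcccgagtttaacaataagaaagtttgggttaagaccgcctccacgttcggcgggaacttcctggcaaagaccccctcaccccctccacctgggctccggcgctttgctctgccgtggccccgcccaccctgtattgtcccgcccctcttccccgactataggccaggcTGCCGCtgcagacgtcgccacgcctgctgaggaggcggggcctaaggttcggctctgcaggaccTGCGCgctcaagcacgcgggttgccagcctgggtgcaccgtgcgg
Dnmt3l, chr10:78042037-78042336, plus strand: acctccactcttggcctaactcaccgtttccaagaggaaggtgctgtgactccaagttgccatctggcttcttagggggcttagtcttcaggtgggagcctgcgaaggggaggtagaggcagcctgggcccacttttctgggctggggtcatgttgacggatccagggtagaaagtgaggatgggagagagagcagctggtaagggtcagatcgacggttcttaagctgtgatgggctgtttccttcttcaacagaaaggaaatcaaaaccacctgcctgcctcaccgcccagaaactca
Zfp57, chr17:37002275-37002574, plus strand: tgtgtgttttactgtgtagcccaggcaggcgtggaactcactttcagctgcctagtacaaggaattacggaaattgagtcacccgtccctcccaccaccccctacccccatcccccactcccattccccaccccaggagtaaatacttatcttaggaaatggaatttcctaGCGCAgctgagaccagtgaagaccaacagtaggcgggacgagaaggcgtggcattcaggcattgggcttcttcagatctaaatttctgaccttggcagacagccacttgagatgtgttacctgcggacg

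TGCCGC lay in 3 of the 19 member promoters, 2 of Dnmt3a and 1 of Trim28, and in 14.2% of 20,085 promoters in the table. TGCGC lay in 7 of 19, and in 38.6% of all promoters. Both counts describe these windows and mark no binding site. The number of CG dinucleotides ran from 2 at the distal Dnmt1 start to 57 at Tet2, with 46 and 47 at the first 2 Dnmt3a starts, 30 at Dnmt3b, 23 at Trim28, 3 to 6 at Dnmt3l and 4 to 9 at Zfp57.

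Across whole gene windows the members showed little enrichment. None of the 10 windows reached a log2 of 1 over input in any of the 7 ChIP libraries, where 0 to 0.358% of 20,393 protein-coding windows did (0.0245% in Cas9 anti-FLAG, 0.049% in RGM anti-FLAG, 0% in Cas9 anti-GZF1, 0.284% in RGM anti-GZF1, 0.348% in the knockout, 0.358% in the control and 0% for H3K27ac). The highest member window was at 0.22 in Cas9 anti-FLAG, 0.46 in RGM anti-FLAG, 0.48 in Cas9 anti-GZF1 and 0.53 in RGM anti-GZF1, on this log2 scale with a pseudocount of 0.5. The median member window was at 0.07 in Cas9 anti-FLAG against 0.01 for all protein-coding genes, at 0.24 in RGM anti-FLAG against 0.06, at 0.12 in Cas9 anti-GZF1 against 0.06 and at 0.29 in RGM anti-GZF1 against 0.07. In the knockout the median member window was at −0.15 against −0.13 for all protein-coding genes, and in the control at −0.22 against −0.15.

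Single bins at 2-fold or more were few. Of 518 member bins that passed the input filter, 4 (0.772%) were called in Cas9 anti-FLAG, where 1.36% of all bins were called, and 7 (1.35%) in RGM anti-FLAG, where 2.39% were. Anti-GZF1 gave 10 bins (1.93%) in Cas9 wild type beside 2.12% of all bins, and 28 bins (5.41%) in RGM wild type beside 9.74%. In the knockout 2 bins (0.386%) were called beside 0.274% of all bins, and in the control 5 (0.965%) beside 0.226%. H3K27ac gave 12 (2.32%) beside 3.25%, and the input 38 (7.34%) beside 19.5%. The member shares were below the background in both anti-FLAG libraries and both wild-type anti-GZF1 libraries. Without the flanks the knockout and the control had 1 called member bin each. The high shares of the input and of RGM anti-GZF1 stand beside their low read numbers per bin, whose part was not tested.

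Annotated starts held 3 of the 4 called bins in Cas9 anti-FLAG, 4 of 7 in RGM anti-FLAG, 6 of 10 in Cas9 anti-GZF1 and 9 of 28 in RGM anti-GZF1. Of the 16 start bins that passed the filter, 3 (18.8%) were called in Cas9 anti-FLAG beside 18.1% of all bins with a protein-coding start, and 4 (25%) in RGM anti-FLAG beside 31.6%. With anti-GZF1, 6 (37.5%) were called in Cas9 wild type beside 32.6%, and 9 (56.2%) in RGM wild type beside 48.8%. The knockout and the control each had 1 called start bin (6.25%), beside 7% and 6.99% of all start bins, H3K27ac had 5 (31.2%) beside 27.4%, and the input had 2 (12.5%) beside 19.4%. All 4 bins called in Cas9 anti-FLAG were also called in RGM anti-FLAG (57.1% of its 7 bins), in Cas9 anti-GZF1 (40% of 10) and for H3K27ac (33.3% of 12). They were the Dnmt1 start, both Uhrf1 starts and a bin in the Uhrf1 flank at the near end of Kdm4b. Without the input filter the start bins called, of 18, were 3 in Cas9 anti-FLAG (beside 23.4% of all start bins), 6 in RGM anti-FLAG (39.7%), 8 in Cas9 anti-GZF1 (40.8%), 11 in RGM anti-GZF1 (56.6%), 1 in the knockout (8.41%), 1 in the control (8.83%), 7 for H3K27ac (35.1%) and 3 in the input (34%).

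**Figure D1:**
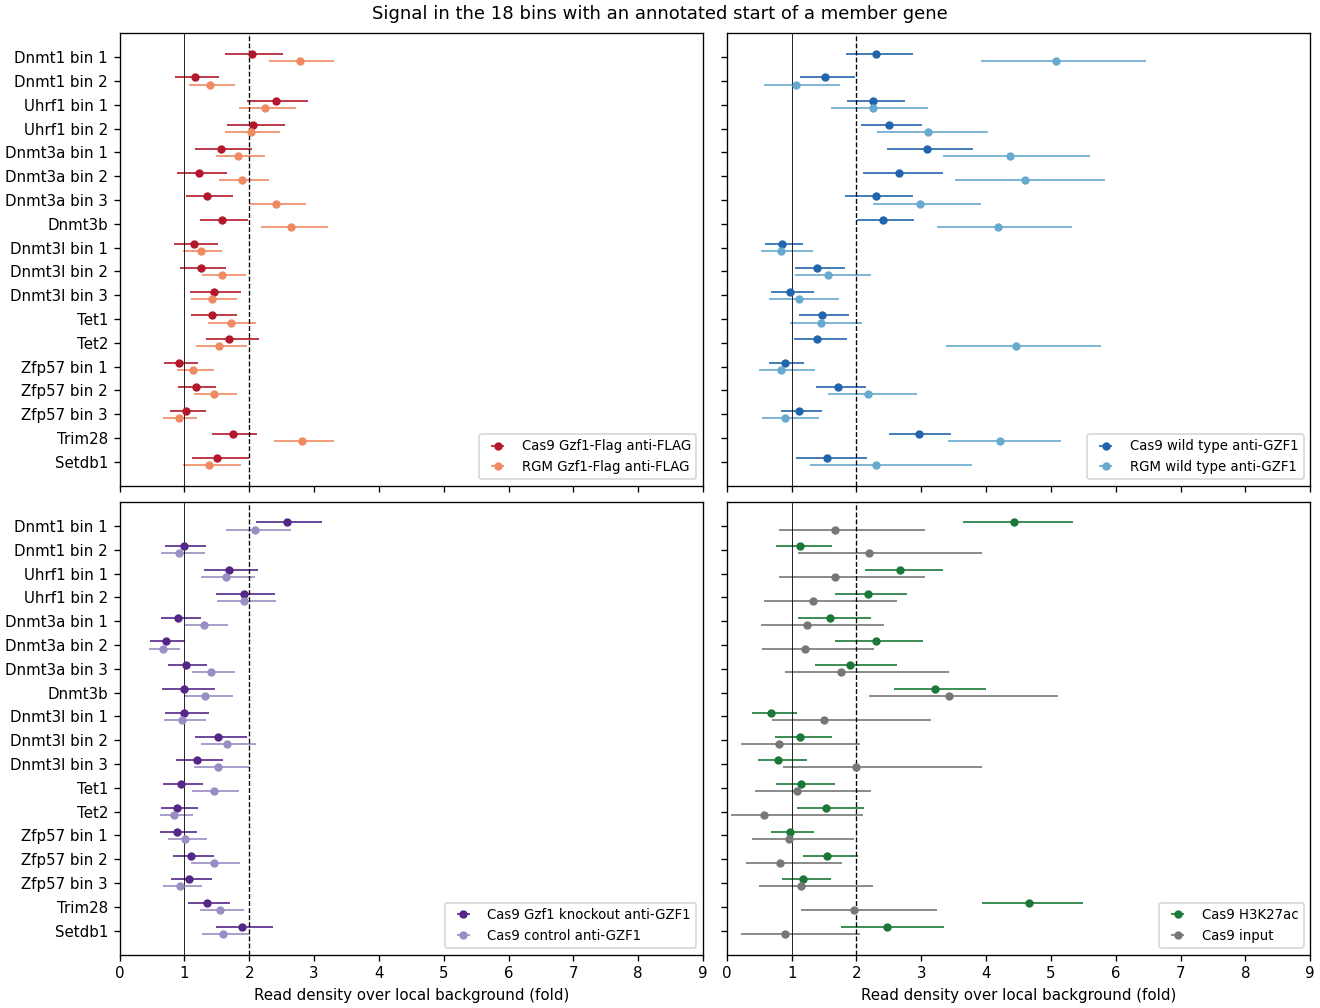
Read density over local background (fold, x axis) in the 18 bins with an annotated start of a member gene (rows), for pairs of libraries; points are single libraries, bars 95% Poisson intervals, and the dashed line is 2-fold. Dnmt1 bin 1 is at 2 or more in every library except the input, while Dnmt3a, Dnmt3b, Tet2 and Trim28 are high with anti-GZF1 in RGM and not in the knockout or control. The knockout and control are Cas9 libraries, and in Cas9 wild type anti-GZF1 Tet2 is at only 1.40, whereas Dnmt3a, Dnmt3b and Trim28 pass 2.

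Among the genes that copy methylation, Dnmt1 had the highest start bin fold of any member in RGM anti-GZF1. Dnmt1 spans chr9 20907206 to 20959888 on the minus strand, and the bin from 20952001 holds 2 of its 3 annotated starts. Its density was 3.12 in Cas9 anti-FLAG, 4.77 in RGM anti-FLAG, 3.55 in Cas9 anti-GZF1, 7.67 in RGM anti-GZF1, 3.17 in the knockout, 2.0 in the control, 6.94 for H3K27ac and 2.55 in the input. Folds over local background were 2.04 (1.63 to 2.52) and 2.78 (2.31 to 3.30) with anti-FLAG in Cas9 and RGM, and 2.31 (1.85 to 2.86) and 5.08 (3.93 to 6.46) with anti-GZF1. The knockout was raised there too, at 2.58 (2.10 to 3.12), as was the control at 2.09 (1.64 to 2.64), and H3K27ac stood at 4.43 (3.64 to 5.34). The distal start, in the bin from 20959001, had folds of 0.92 to 1.51 in the 7 ChIP libraries, and the input was at 2.20 on 11 reads.

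Uhrf1, on the plus strand of chr17 from 56303337 to 56323486, was the member with the highest promoter fold in Cas9 anti-FLAG. Its first start bin had densities of 3.89 in Cas9 anti-FLAG, 3.99 in RGM anti-FLAG, 4.39 in Cas9 anti-GZF1, 4.49 in RGM anti-GZF1, 2.03 in the knockout, 1.77 in the control, 5.14 for H3K27ac and 2.55 in the input. The second had densities of 3.30 in Cas9 anti-FLAG, 3.56 in RGM anti-FLAG, 4.87 in Cas9 anti-GZF1, 6.18 in RGM anti-GZF1, 2.23 in the knockout, 2.07 in the control, 4.04 for H3K27ac and 2.04 in the input. Both bins lay at 2.03- to 3.10-fold over local background in the anti-FLAG and wild-type anti-GZF1 libraries, at 1.64- to 1.92-fold in the knockout and control and at 2.18- and 2.68-fold for H3K27ac. Averaged over both starts the Cas9 anti-FLAG fold was 2.23, and 14.35% of protein-coding genes were higher. In RGM anti-FLAG, Cas9 anti-GZF1 and RGM anti-GZF1 36.0%, 28.3% and 43.9% of genes were higher. The knockout fold was 1.79 and the control fold 1.78, with 16.5% and 17.8% of genes higher. The raised signal was shared by both lines and both antibodies, at values that many promoters reached. Among all genes the Uhrf1 promoter also ranked high in the knockout and the control.

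The bins at the Kdm4b end of the Uhrf1 window were picked out after their values were seen. Kdm4b encodes a histone lysine demethylase. In the bin from 56326001 the knockout had 31 reads and the control 62.2, a ratio of 0.541 (0.341 to 0.849), while in the adjoining bin from 56325001 the knockout had 96.25 reads and the control 67.55, a ratio of 1.55 (1.11 to 2.12). Summed, the 2 bins had 127.25 reads in the knockout and 129.75 in the control, a ratio of 1.07 (0.824 to 1.37). The lower value in 1 bin was thus matched by a higher value beside it.

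At the starts of the de novo methyltransferases Dnmt3a and Dnmt3b, RGM anti-GZF1 gave the highest fold of the 8 libraries. Dnmt3a, on the plus strand of chr12 from 3801559 to 3914443, has 3 annotated start bins. The bin from 3806001 had densities of 1.96 in Cas9 anti-FLAG, 3.58 in RGM anti-FLAG, 3.73 in Cas9 anti-GZF1, 7.10 in RGM anti-GZF1, 1.09 in the knockout, 1.75 in the control, 2.09 for H3K27ac and 2.04 in the input. The next bin had densities of 1.57 in Cas9 anti-FLAG, 3.70 in RGM anti-FLAG, 3.21 in Cas9 anti-GZF1, 7.47 in RGM anti-GZF1, 0.861 in the knockout, 0.895 in the control, 2.93 for H3K27ac and 2.32 in the input. Anti-GZF1 was high in both lines, with folds of 3.09 (2.48 to 3.80) and 2.66 (2.10 to 3.34) in Cas9 and 4.36 (3.33 to 5.6) and 4.59 (3.52 to 5.84) in RGM, and the knockout was at 0.90 and 0.71 and the control at 1.30 and 0.66. Cas9 anti-FLAG did not pass 2-fold at any Dnmt3a start, with 1.22 to 1.57, and RGM anti-FLAG did at the internal start in the bin from 3891001, with 2.42 (2.0 to 2.88). The highest Cas9 anti-FLAG bin of the Dnmt3a window lay elsewhere, in the gene body from 3871001 at 2.12-fold, where the input was at 2.43-fold and the knockout at 2.17-fold, and it failed the input filter at an input density of 3.40.

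Dnmt3b (chr2 153649411 to 153687730, plus strand) has 1 start bin, from 153649001. It held 74.25 reads in Cas9 anti-FLAG, 109.5 in RGM anti-FLAG, 120.55 in Cas9 anti-GZF1, 66.95 in RGM anti-GZF1, 26 in the knockout, 51.7 in the control, 84.65 for H3K27ac and 24 in the input. The input was itself raised, to 3.43-fold (2.20 to 5.10), and at an input density of 6.11 the bin failed the input filter. Folds were 1.58 (1.24 to 1.98) and 2.65 (2.19 to 3.21) with anti-FLAG in Cas9 and RGM, and 2.40 (2.0 to 2.88) and 4.18 (3.25 to 5.32) with anti-GZF1. Over input, the log2 value was 0.32 in RGM anti-GZF1 and below 0 in the 6 other ChIP libraries. Whether the input signal plays a part in the ChIP values was not tested.

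Dnmt3l, the cofactor, showed no start bin at 2-fold in any ChIP library. Its 3 start bins on chr10 (gene 78042287 to 78063622, plus strand) had folds of 1.15 to 1.45 in Cas9 anti-FLAG, 1.26 to 1.59 in RGM anti-FLAG, 0.85 to 1.40 in Cas9 anti-GZF1 and 0.84 to 1.55 in RGM anti-GZF1. H3K27ac was at 0.68 to 1.12, and 88.9% of protein-coding genes had a higher H3K27ac promoter value. These promoters hold the fewest CG dinucleotides of the set beside those of Zfp57 and the distal Dnmt1 start.

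**Figure D2:**
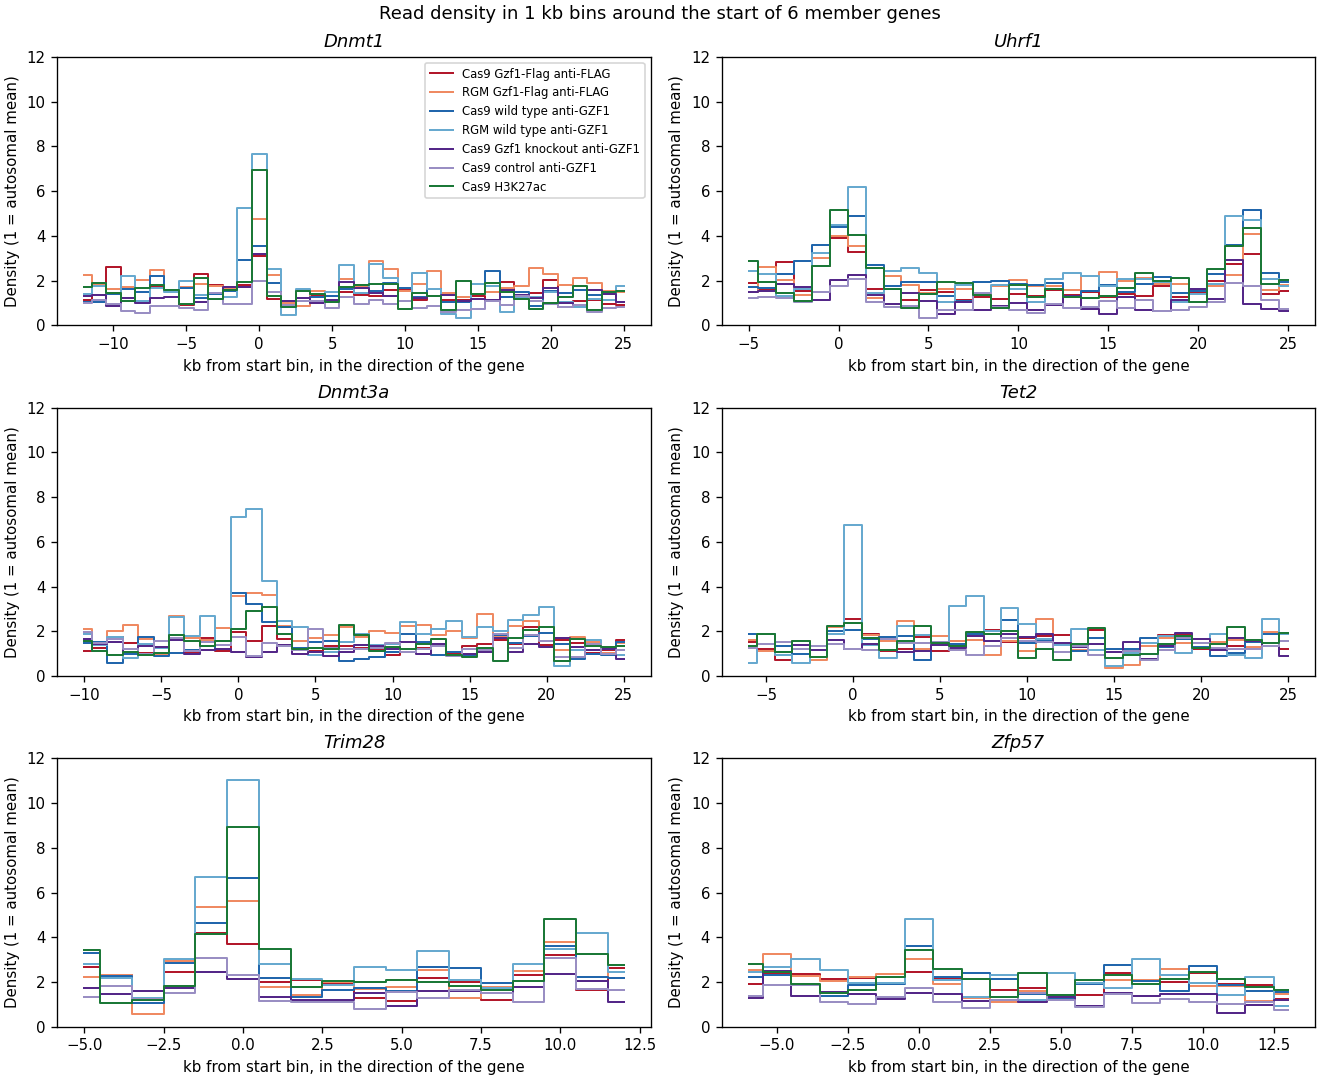
Read density (y axis, 1 is the autosomal mean) in 1 kb bins by distance from the start bin in the direction of the gene (x axis, kb) for 6 members in the 7 ChIP libraries. Zero is the bin from 20952001 for Dnmt1 and the middle start bin for Zfp57, and the first annotated start bin for the other genes; at zero RGM anti-GZF1 is the highest line in every panel but that of Uhrf1, where H3K27ac is, and the rise at the right of the Uhrf1 panel is the Kdm4b end.

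Among the TET genes, Tet2 had the lowest Cas9 over RGM ratio of the member start bins with anti-GZF1. Tet2 lies on the minus strand of chr3 from 133463677 to 133545136, and its start bin from 133544001 held 69.65 reads in Cas9 anti-FLAG, 63 in RGM anti-FLAG, 49 in Cas9 anti-GZF1, 58 in RGM anti-GZF1, 40 in the knockout, 43.5 in the control, 37.65 for H3K27ac and 2 in the input. As densities the Cas9 wild-type value was 2.08 (1.54 to 2.75) and the RGM wild-type value 6.74 (5.11 to 8.71), so Cas9 stood at 0.308 (0.206 to 0.459) of RGM. Folds over local background were 1.40 in Cas9 and 4.46 (3.39 to 5.77) in RGM. With anti-FLAG the Cas9 over RGM ratio was 1.08 (0.758 to 1.54). Against input Tet2 was the only member whose promoter passed a log2 of 1 in Cas9 anti-FLAG (1.60), RGM anti-FLAG (1.51) and Cas9 anti-GZF1 (1.35), and it passed in RGM anti-GZF1 at 2.84, all of which rest on the 2 input reads. Those input reads give an input density of 0.509 (0.0617 to 1.84).

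Of the 8 members with a promoter bin inside the input filter, 1 passed a log2 of 1 over input in Cas9 anti-FLAG (7.89% of 11,399 protein-coding promoters), 1 in RGM anti-FLAG (15.9%), 1 in Cas9 anti-GZF1 (15.3%) and 3 in RGM anti-GZF1 (34.8%). The last 3 were Tet2, Dnmt3a and Uhrf1. None passed in the knockout (4.75%) or the control (4.72%), and Tet2 passed for H3K27ac (14%). Tet1, on the minus strand of chr10 from 62804570 to 62887469, stayed low at its start bin, with folds of 1.42 and 1.72 for anti-FLAG and 1.47 and 1.45 for anti-GZF1 in Cas9 and RGM, 0.95 in the knockout, 1.46 in the control and 1.15 for H3K27ac.

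Of the imprint protection genes, Trim28 passed 2-fold at its start bin in RGM anti-FLAG, both wild-type anti-GZF1 libraries and H3K27ac. In Cas9 anti-FLAG it did not, and Zfp57 was lower than Trim28 in each of these libraries. The Trim28 start bin, from 13024001 on chr7 (gene 13024152 to 13031032, plus strand), had densities of 3.70 in Cas9 anti-FLAG, 5.61 in RGM anti-FLAG, 6.64 in Cas9 anti-GZF1, 11.03 in RGM anti-GZF1, 2.15 in the knockout, 2.33 in the control, 8.95 for H3K27ac and 4.0 in the input. Folds were 1.74 (1.42 to 2.12) and 2.82 (2.38 to 3.30) with anti-FLAG in Cas9 and RGM, 2.96 (2.51 to 3.45) and 4.22 (3.42 to 5.16) with anti-GZF1, 1.34 in the knockout and 1.55 in the control. Its H3K27ac fold of 4.67 (3.93 to 5.5) was the highest of the members, and 1.87% of protein-coding genes were higher. The bin failed the input filter and also holds the start of Gm31649, so the signal cannot be given to 1 of the 2 genes.

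Zfp57 (chr17 37001163 to 37010729, plus strand) has 3 start bins, of which the middle one, from 37002001, was the highest. It had densities of 2.44 in Cas9 anti-FLAG, 3.02 in RGM anti-FLAG, 3.59 in Cas9 anti-GZF1, 4.80 in RGM anti-GZF1, 1.51 in the knockout, 1.74 in the control, 3.45 for H3K27ac and 1.53 in the input. Against a local background that was itself above the autosomal mean these were folds of 1.18 in Cas9 anti-FLAG, 1.45 in RGM anti-FLAG, 1.72 (1.38 to 2.14) in Cas9 anti-GZF1, 2.18 (1.55 to 2.94) in RGM anti-GZF1, 1.10 in the knockout, 1.46 in the control, 1.55 for H3K27ac and 0.82 in the input. The other 2 start bins had folds of 0.84 to 1.17 in the 7 ChIP libraries.

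Setdb1, on the minus strand of chr3 from 95323525 to 95357202, had 49.75 reads in Cas9 anti-FLAG, 39.15 in RGM anti-FLAG, 34 in Cas9 anti-GZF1, 15.05 in RGM anti-GZF1, 78.05 in the knockout, 76.8 in the control, 40.15 for H3K27ac and 4.5 in the input at its start bin from 95357001. Its RGM anti-GZF1 fold of 2.30 (1.28 to 3.78) passed 2-fold, and Cas9 anti-GZF1 was at 1.55 (1.07 to 2.17). The knockout fold of 1.89 (1.49 to 2.36) and the control fold of 1.60 (1.26 to 2.0) lay above the 1.51 of Cas9 anti-FLAG and the 1.55 of Cas9 anti-GZF1, with overlapping intervals. H3K27ac stood at 2.47 (1.76 to 3.35).

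The highest Cas9 anti-FLAG bin of a window, which is a chosen maximum, lay at an annotated start in Dnmt1, Uhrf1 and Dnmt3b. At Trim28 it was the bin before the start, from 13023001, with folds of 1.98 in Cas9 anti-FLAG, 2.68 in RGM anti-FLAG and 2.09 in Cas9 anti-GZF1. At Tet2 it was a gene body bin from 133497001, with 1.72 in Cas9 anti-FLAG, 0.74 in RGM anti-FLAG and 1.28 in Cas9 anti-GZF1. At Setdb1 it was a bin from 95337001, with 1.70 in Cas9 anti-FLAG, 1.24 in RGM anti-FLAG and 0.91 in Cas9 anti-GZF1. The Trim28 bin was thus above 2-fold in the other 2 libraries, and the Tet2 and Setdb1 bins were not. However, the Trim28 bin failed the input filter, and its density was also raised in the control, at 3.05. In that Trim28 bin the wild type over control ratio was 1.51 (1.15 to 2.0). Knockout over control was 0.797 (0.590 to 1.07) there. The Tet1 bin (from 62815001) had 1.77 in Cas9 anti-FLAG, 1.21 in RGM anti-FLAG and 1.35 in Cas9 anti-GZF1, and the Dnmt3l bin (from 78060001) had 1.60, 1.06 and 0.80 in these libraries. At Zfp57 the maximum was 1.2, in the bin from 37009001. Among the windows' highest RGM anti-FLAG bins, the highest fold outside a start was upstream of Setdb1, from 95359001, with 1.14 in Cas9 anti-FLAG, 2.34 (1.80 to 3.0) in RGM anti-FLAG and 2.01 in RGM anti-GZF1 on 10 reads.

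Set beside all protein-coding genes with an annotated start, the members' promoters (mean of the starts of a gene, no input filter) held a middle place. Their median fold in Cas9 anti-FLAG was 1.55 against 1.56 for all genes, in RGM anti-FLAG 1.88 against 1.79, in Cas9 anti-GZF1 1.74 against 1.83 and in RGM anti-GZF1 2.86 against 2.40. In the knockout it was 1.13 against 1.31, in the control 1.42 against 1.32, for H3K27ac 2.18 against 1.70 and in the input 1.38 against 1.56. Of the 10 members 1 reached 2-fold in Cas9 anti-FLAG (24% of all genes), 5 in RGM anti-FLAG (41.9%), 4 in Cas9 anti-GZF1 (43.3%) and 7 in RGM anti-GZF1 (60.3%). None did in the knockout (8.9% of all genes) or the control (9.6%), 5 did for H3K27ac (36.9%) and 1 in the input (34.4%).

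**Figure D3:**
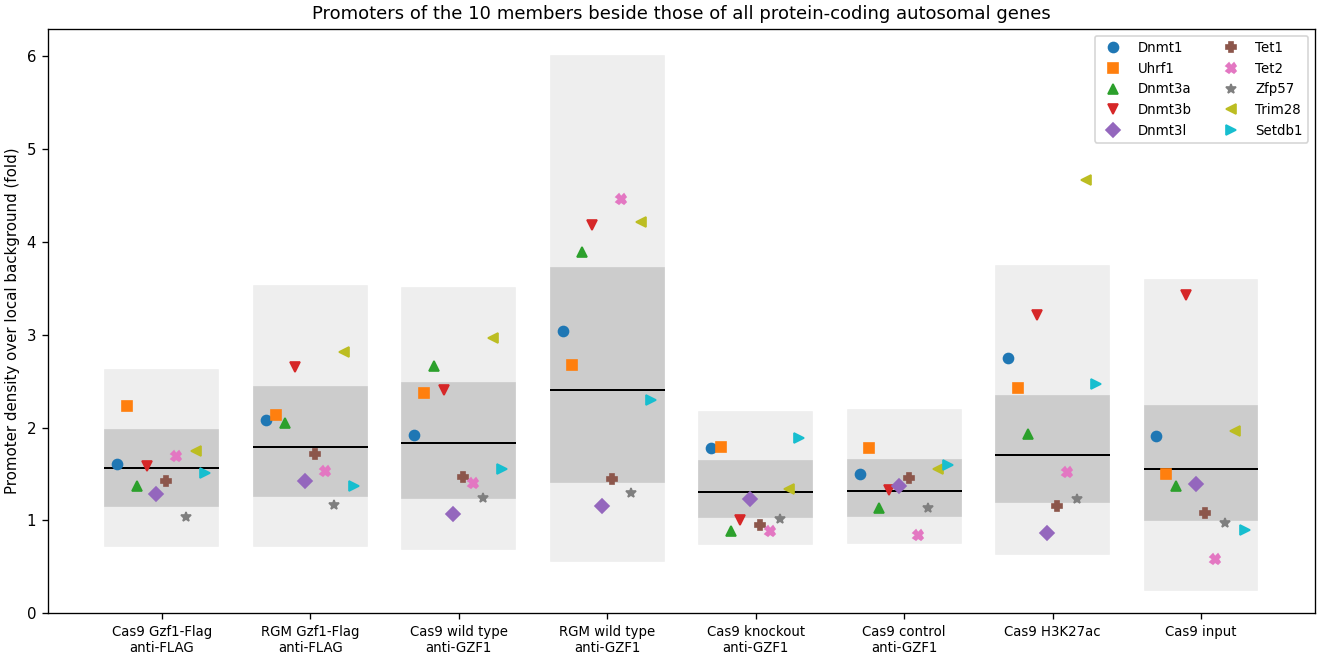
Promoter density over local background (fold, y axis) by library (x axis) for the 10 members (coloured symbols), with the median (line), quartiles (dark grey) and 5th to 95th percentile (light grey) of all protein-coding autosomal genes with an annotated start. Trim28 lies above the light band for H3K27ac, at 4.67.

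A wider list of 30 genes of DNA methylation and heterochromatin, of which 29 were in the autosomal gene table and 26 had an annotated start, gave higher medians than the members: 1.78 in Cas9 anti-FLAG, 2.25 in RGM anti-FLAG, 2.37 in Cas9 anti-GZF1 and 3.37 in RGM anti-GZF1. Like the members, this list was chosen with earlier results of these data known. Its values are therefore not independent of that choice and describe the listed genes only. Of the 26, 9 reached 2-fold in Cas9 anti-FLAG, where 24% of all protein-coding genes did, and 19 in RGM anti-FLAG, where 41.9% did. With anti-GZF1, 17 did in Cas9 wild type (43.3% of all genes) and 21 in RGM wild type (60.3%). The knockout had 3 (8.9%), the control 5 (9.6%), H3K27ac 13 (36.9%) and the input 11 (34.4%). Those in the knockout were Mbd4 (2.61), Mbd3 (2.27) and Kdm1b (2.07). Those in the control were Arid4b (2.62), Mbd4 (2.55), Mbd3 (2.25), Uhrf2 (2.08) and Tet3 (2.07). With anti-FLAG in Cas9 the highest were Tet3 (3.21), a further TET enzyme, Mbd4 (2.53), a DNA glycosylase, Ehmt1 (2.48), a histone H3 lysine 9 methyltransferase, and Smchd1 (2.38), and Zbtb4 was lowest (0.82). With anti-GZF1 in Cas9 they were Ctcf (3.50), the insulator protein, Tet3 (3.44), Ehmt1 (3.28) and Suv39h2 (3.08), with Usp7 lowest (1.07). In RGM, Kdm1b, Uhrf2, Ctcf and Smchd1 led with anti-FLAG (4.01, 3.54, 3.45 and 3.35), and Uhrf2, Ehmt1, Mbd3 and Suv39h2 with anti-GZF1 (7.85, 5.99, 5.86 and 5.85), with Zbtb4 lowest in both (1.19 and 0.78). The input was also raised at Uhrf2 (3.50), Mbd3 (6.18), Ehmt1 (3.40), Ctcf (3.07), Tet3 (3.0), Kdm1b (3.0) and Suv39h2 (2.35), and its part in these values was not tested.

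In the 2 anti-FLAG libraries, both wild-type anti-GZF1 libraries and H3K27ac, folds at the member starts were higher where the promoter held more CG dinucleotides. Over the 18 start bins Spearman's rho between that number and the fold was 0.54 in Cas9 anti-FLAG, 0.57 in RGM anti-FLAG, 0.695 in Cas9 anti-GZF1, 0.80 in RGM anti-GZF1, −0.24 in the knockout, −0.10 in the control, 0.58 for H3K27ac and −0.11 in the input. Over the bins of all protein-coding starts it was 0.64 in Cas9 anti-FLAG, 0.70 in RGM anti-FLAG, 0.72 in Cas9 anti-GZF1, 0.72 in RGM anti-GZF1, 0.43 in the knockout, 0.45 in the control, 0.67 for H3K27ac and 0.40 in the input. These are descriptions across bins that share libraries and base composition. Starts of all genes with at most 5 CG dinucleotides had a median RGM anti-GZF1 fold of 1.16, and those with more than 20 had 3.78. In the knockout, the control and the input rho was below 0 over the members' 18 start bins and above 0 over all starts.

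**Figure D4:**
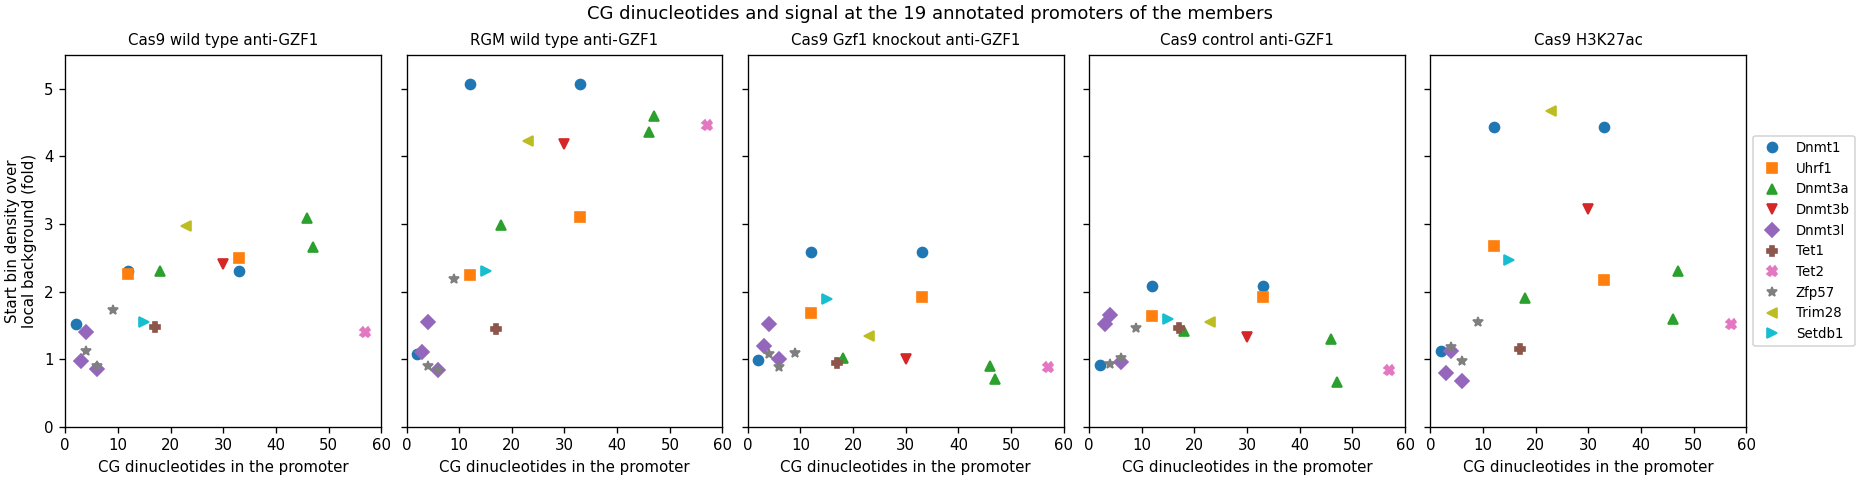
Start bin density over local background (fold, y axis) against CG dinucleotides in the promoter (x axis) at the 19 annotated promoters of the members, in 5 libraries. With RGM anti-GZF1 the fold tends to be higher at higher CG content, with exceptions. Tet2 with 57 is at 4.46 and Dnmt3l with 6 at 0.84, but Tet1 with 17 is at 1.45. A Dnmt1 promoter with 12 is at 5.08, in a bin it shares with the Dnmt1 promoter with 33. Tet2 is at 1.40 in Cas9 anti-GZF1 and at 0.88 in the knockout.

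Between the lines, the interval of the Cas9 over RGM ratio lay below 1 at 7 of 18 start bins with anti-GZF1, where it did at 35% of all start bins with 30 or more reads in both libraries together, and at 8 of 18 with anti-FLAG, where it did at 29.6%. It lay above 1 at no member start bin, where it did at 2.44% of all in the anti-GZF1 pair and at 4.03% in the anti-FLAG pair. With anti-GZF1, 3 of 18 start bins (16.7%) were 2-fold or more lower in Cas9 than in RGM, namely Tet2, the second Dnmt3a bin (0.430, 0.307 to 0.614) and Dnmt1 (0.463, 0.333 to 0.652), where 10.5% of all start bins with 30 or more reads in both libraries together were. With anti-FLAG 2 of 18 (11.1%) were, both of Dnmt3a (0.424 and 0.453), where 4.87% of all were. No member start bin was 2-fold higher in Cas9, where 3.09% were with anti-GZF1 and 1.90% with anti-FLAG. Relative to the surrounding 1 Mb, 1 of 18 was 2-fold lower with anti-GZF1 (6.88% of all start bins) and 0 with anti-FLAG (2.57%), and the interval lay below 1 at 8 with anti-GZF1 (31.5% of all) and at 7 with anti-FLAG (21.6%). Line, library depth and, with anti-FLAG, the clone cannot be told apart in these values.

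Relative to the surrounding 1 Mb the member windows in the knockout lay close to those in the control. The control itself showed little enrichment. Of all start bins 6.99% were called in it and 7% in the knockout, beside 32.6% in Cas9 wild type anti-GZF1. Of all bins the shares were 0.226%, 0.274% and 2.12%. The comparison thus had little signal that could be lost, at windows and at start bins, and does not show whether binding was unchanged. The Dnmt1 window had a density of 1.28 in the knockout and 0.90 in the control, a ratio of 1.43 (1.35 to 1.51), and the Dnmt3b window 0.749 in the knockout and 1.03 in the control, a ratio of 0.725 (0.674 to 0.781). These were the 2 members at least 25% higher or 20% lower, where 8.23% of all windows were higher and 5.59% lower by that much. The 1 Mb around Dnmt1 stood at 1.36 and that around Dnmt3b at 0.73, and set against it the ratios were 1.05 (0.991 to 1.11) and 0.994 (0.924 to 1.07). On that scale no member passed either limit, where 0.282% of windows were higher and 0.253% lower, and the 10 ratios ran from 0.98 at Trim28 to 1.11 at Uhrf1. The whole of chromosome 9, with Dnmt1, had a ratio of 1.05 and chromosome 2, with Dnmt3b and Gzf1, of 0.971.

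At the start bins the knockout to control ratio had a median of 0.974 over 18 bins, and none was 2-fold lower or higher. Of all start bins with 20 or more control reads, 1.48% were 2-fold lower and 0.726% were 2-fold higher. Past 1.5-fold lower were 8.73% of all start bins with that many control reads. Of the member start bins 2 of 18 (11.1%) were, the Dnmt3b start at 0.546 (0.326 to 0.886) and the first Dnmt3a bin at 0.624 (0.400 to 0.949). Set against the surrounding 1 Mb these became 0.746 (0.445 to 1.21) and 0.677 (0.434 to 1.03), and Tet1, with 40.15 reads in the knockout and 65.35 in the control, was at 0.650 (0.428 to 0.980). Dnmt1 was higher in the knockout, at 1.58 (1.15 to 2.15), and at 1.16 (0.844 to 1.58) relative to the 1 Mb. At Trim28 the ratio was 0.922 (0.667 to 1.29), at Tet2 0.999 (0.627 to 1.55) and at the Uhrf1 starts 1.15 (0.807 to 1.66) and 1.08 (0.765 to 1.5).

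**Figure D5:**
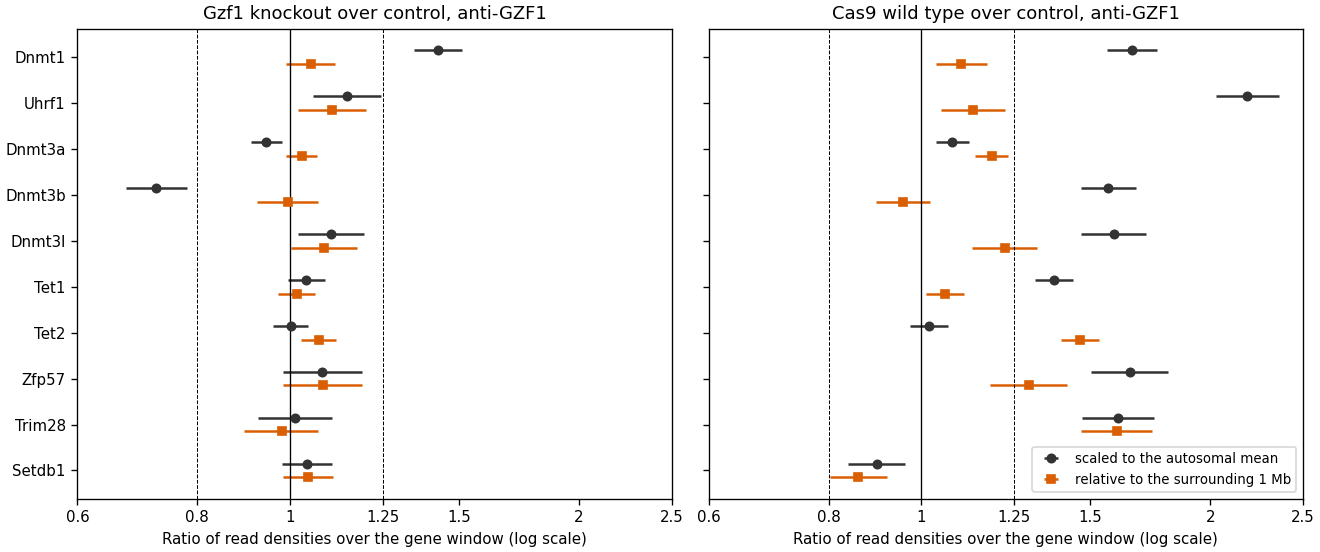
Ratio of read densities over each member window (x axis, log scale), knockout over control at left and wild type over control at right, with 95% intervals; circles are scaled to the autosomal mean and squares relative to the surrounding 1 Mb, and dashed lines mark 25% higher and 20% lower. In the left panel all squares lie within the dashed lines, while Dnmt1 and Dnmt3b circles lie outside.

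The control library differed from the wild type, although both are anti-GZF1 libraries of Cas9 cells. By the same limits 7 of 10 member windows were higher in the wild type (48.2% of all windows) and 0 lower (12.5%), with Uhrf1 highest at a density of 2.26 in the wild type and 1.03 in the control, a ratio of 2.19 (2.03 to 2.36), and Setdb1 lowest at 0.898 (0.838 to 0.961). Set against the surrounding 1 Mb 3 were higher (17.4% of all windows) and 0 lower (7.7%): Trim28 at 1.60 (1.47 to 1.74), Tet2 at 1.46 (1.40 to 1.53) and Zfp57 at 1.29 (1.18 to 1.42). The Dnmt3b ratio was 1.57 (1.47 to 1.67) and turned to 0.956 (0.896 to 1.02) on that scale. Scaled to the chromosome median instead, 9 members were higher, and the Setdb1 ratio was 1.15. At the start bins 8 of 18 (44.4%) were 2-fold or more higher in the wild type, and none was 2-fold lower. Of all start bins with 30 or more reads in both libraries together, 32.2% were higher and 5.67% lower by that much. The highest members were the second Dnmt3a bin at 3.59 (2.35 to 5.63), Dnmt3b at 3.54 (2.53 to 4.98) and Trim28 at 2.85 (2.17 to 3.77). Relative to the surrounding 1 Mb 5 of 18 were 2-fold or more higher, where 19.3% of all start bins with that many reads were. Among the 5 were the second Dnmt3a bin at 3.86 (2.53 to 6.06), Trim28 at 2.81 (2.14 to 3.71) and Dnmt3b at 2.16 (1.54 to 3.04).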

How the data were processed

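Per the submitters' processing notes the tools were cutadapt, Bowtie2 (2.5.4), SAMtools and deepTools, with build mm10; duplicate and mapping-quality filters are not given in the sources used here. The deposited table holds estimated counts (expected counts) of reads per 1 kb bin, not scaled to depth, and 8 of 12 libraries were used; 100% of values were multiples of 0.05 (tolerance 0.0005 reads). The other 4 libraries were not analysed here.

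Counts were divided by each library's autosomal mean. Poisson and, for ratios, Clopper-Pearson intervals (95%) used counts rounded to whole reads. The single Cas9 input served both lines. The scripts were tested on simulated data. All members are named, with each window's highest anti-FLAG bins and genes there. Of the wider list, the 4 highest and the lowest genes per wild-type anti-GZF1 and anti-FLAG library are named. Its genes at 2-fold or more in the knockout or the control are named too. Members and lists were chosen with earlier results of these data known. Alternatives were other local windows, fold thresholds, pseudocounts, scalings, no flank and no input filter. Python 3.11.15, numpy 2.4.6, pandas 2.3.3, scipy 1.17.1 and matplotlib 3.10.9 were used.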

Additional observations from a re-analysis of the deposited data

How the results depend on the processing

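Of 117 recomputed counts 71 had a reported value above 0, of which 50 stayed within 1.5 times of it; the other 46 were 0 and stayed 0. At 1.5-fold over local background 25, 45, 36, 75, 23, 24 and 44 member bins were called in Cas9 anti-FLAG, RGM anti-FLAG, Cas9 anti-GZF1, RGM anti-GZF1, the knockout, the control and H3K27ac, and at 3-fold 0, 0, 1, 7, 0, 0 and 1. Without flanks the knockout and the control had 1 called bin each, and with 5 bins on each side the control had 3. Without the input filter 2 promoters passed over input for H3K27ac. Relative to the surrounding 1 Mb, 0 members were higher and 0 lower in the knockout. In the wild type 3 were higher than in the control, and the Dnmt3b wild type to control ratio reversed to 0.956. Scaled to the chromosome median, 9 were higher in the wild type, and the Setdb1 ratio of 0.898 became 1.15. The causes were not tested. No paired analysis was possible because each group is 1 library. Leaving out a library was not possible for the same reason. Depth limits most the input, where a bin with no reads allows a density of up to 0.764, and RGM anti-GZF1, where it allows 0.348.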
